A study of Mus musculus and Homo sapiens with 81 samples.

Results

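The comparison described here asks what TNFa added to the transcriptome of B16 cells that already received IFNg. B16 is a mouse melanoma line. The cells expressed Cas9 and carried, from a lentivirus, the non-targeting guide Bro3, so their genotype is Control in the labels. The group with both cytokines, treated with IFNg at 100 ng/mL together with TNFa at 10 ng/mL for 48 h, held 3 libraries, and the group treated with IFNg alone at the same dose and time held 3. These 6 libraries are part of 42 B16 libraries and of 81 libraries in the series, and their members were picked out by their labels alone, though the comparison was proposed with earlier results of these data known. Groups set beside them, each of 3 libraries and 48 h, were control cells with TNFa alone, control cells with vehicle (PBS with 0.1% BSA, labelled NS), control cells with IFNb at 1000 U/mL with and without TNFa, and B16 cells with the guide Ptpn2sg3, called Ptpn2-null as the labels have it, under IFNg with and without TNFa. The control cells carried a single guide. No label tells if the 3 replicates came from separate cultures, so p-values measure the spread between libraries, which may be technical.

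TNFa binds the receptor encoded by Tnfrsf1a, which assembles a ubiquitin scaffold and activates the NF-kB transcription factors. NF-kB induces its own inhibitors, chemokines and survival genes, and when the scaffold is weakened the same receptor can start caspase-dependent death. IFNg acts through the kinases JAK1 and JAK2, and its signal induces IRF1 and, with it, antigen presentation, guanylate-binding proteins and CXCR3-ligand chemokines. Many inflammatory genes carry sites for both kinds of factor. In melanoma, prolonged inflammatory signalling is also known to lower pigment-cell genes.

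Expression was measured as read counts per gene from poly(A) RNA, and 11726 of 23336 genes had enough counts to be tested. Levels are given as CPM (read counts scaled to library size and composition). Where a group's mean CPM is given, the value after ± is the standard deviation over its 3 libraries, not an SE. Differences are on the log2 scale, each with its SE after ± and with p-values from edgeR's quasi-likelihood fit, adjusted by Benjamini-Hochberg over all tested genes. A bare value with ± after a gene name is such a log2 fold change, IFNg with TNFa over IFNg. A gene is called, or is said to have risen or fallen, at an adjusted p under 0.05. Total counts were 4871995 to 5632938 in the libraries with IFNg and TNFa, against 5044622 to 6432517 in those with IFNg. The melanocyte markers summed to 12440 to 13090 CPM in the IFNg with TNFa libraries, against 23210 to 23510 CPM in the IFNg libraries, with 7 of 7 detected, 1 called higher (Sox10) and 6 called lower. Leukocyte markers summed to 1.252 to 1.989 CPM in the IFNg with TNFa libraries, against 0.8249 to 1.134 CPM in the IFNg libraries, and 13 of 19, Ptprc among them, had no count in the 6. Fibroblast markers summed to 10.67 to 13.14 CPM with TNFa, against 9.898 to 12.1 CPM without it (Dcn and Thy1 at 0), and endothelial markers to 4.34 to 6.186 CPM, against 3.093 to 4.642 CPM (Cdh5, Kdr and Cldn5 at 0). Epithelial markers summed to 0.2086 to 1.092 CPM with TNFa, against 0 to 0.8289 CPM without it. Ptpn2, not targeted in these cells, held 60.3, 60.6 and 60.6 CPM with IFNg and TNFa, against 51.9, 57.5 and 54.9 CPM with IFNg. Its difference of 0.14 ± 0.08 was not called (adjusted p = 0.133).

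The 5 genes shown first, all of which rose, are given by the 250 bases before a RefSeq transcription start (GRCm38.p6, 5′ to 3′ on the gene's own strand), because 2 of them are CXCR3 ligands in a cluster and 3 stand for feedback, antigen presentation and cell death. Capitals mark matches, on either strand, to the kB motif of NF-kB or to the interferon-stimulated response element (ISRE) core GAAANNGAAA. The core of the GAS element of IFNg-responsive genes, TTCNNNGAA, was searched too and has no match in these 5 windows. Where matches overlap, the capitals run on.
Cxcl9, minus strand, chr5:92328080-92328329: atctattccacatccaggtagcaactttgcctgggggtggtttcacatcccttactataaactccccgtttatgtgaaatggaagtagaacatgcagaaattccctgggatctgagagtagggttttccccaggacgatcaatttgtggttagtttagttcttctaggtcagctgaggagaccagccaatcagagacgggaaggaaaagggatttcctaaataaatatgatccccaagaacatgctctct
Cxcl10, minus strand, chr5:92348890-92349139: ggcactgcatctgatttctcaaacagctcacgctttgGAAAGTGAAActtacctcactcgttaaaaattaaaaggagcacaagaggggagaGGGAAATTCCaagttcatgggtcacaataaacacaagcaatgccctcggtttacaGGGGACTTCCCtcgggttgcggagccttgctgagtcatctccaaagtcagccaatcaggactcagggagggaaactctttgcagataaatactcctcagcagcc
Nfkbia, minus strand, chr12:55492648-55492897: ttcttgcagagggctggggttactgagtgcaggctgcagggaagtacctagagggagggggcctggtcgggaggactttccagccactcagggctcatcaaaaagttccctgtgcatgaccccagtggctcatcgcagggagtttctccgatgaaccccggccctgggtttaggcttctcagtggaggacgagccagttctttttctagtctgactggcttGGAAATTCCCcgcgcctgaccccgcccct
H2-K1, minus strand, chr17:34000334-34000583: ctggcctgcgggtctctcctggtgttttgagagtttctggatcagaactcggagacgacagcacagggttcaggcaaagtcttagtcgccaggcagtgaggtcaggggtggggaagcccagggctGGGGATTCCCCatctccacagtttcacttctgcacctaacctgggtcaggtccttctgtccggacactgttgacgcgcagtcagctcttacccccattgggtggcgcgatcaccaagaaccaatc
Casp4, plus strand, chr9:5308599-5308848: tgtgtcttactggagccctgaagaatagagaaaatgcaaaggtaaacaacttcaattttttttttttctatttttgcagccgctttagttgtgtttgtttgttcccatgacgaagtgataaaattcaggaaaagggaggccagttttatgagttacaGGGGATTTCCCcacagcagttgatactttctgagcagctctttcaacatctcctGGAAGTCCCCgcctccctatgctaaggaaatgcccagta

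The Cxcl10 window holds 3 kB matches, starting 159, 104 and 103 bases before the start with the last pair overlapping, and 1 ISRE core starting 213 bases before it. Nfkbia holds 1 kB match that starts 29 bases before its start. H2-K1 holds 2 overlapping kB matches, starting 125 and 124 bases before the start, and Casp4 holds 3, starting 93, 92 and 39 bases before it. RefSeq lists a further start for each of these last 2 genes, not printed here, from which the same matches begin 111 and 110 bases (H2-K1) and 104, 103 and 50 bases (Casp4) before the start. No match of the 3 motifs lies in this window of Cxcl9. Of 27025 genes with a promoter entry, 8.23% hold a kB match, 3.46% an ISRE core and 8.13% a GAS core. Among the 18 genes of the fixed set of named genes that were called higher, 13 have an entry, and 8 of these (61.5%) hold a kB match: Cxcl10, Nfkbia, Tnfaip3, Casp4, B2m, H2-K1, Irf1 and Lif. An ISRE core lies in 2 of the 13 (Cxcl10 and B2m) and a GAS core in 1 (Irf1). Of the 6 called lower, 5 have an entry and 1 (Mitf) holds a kB match. The set was not chosen at random, and a match is only a run of letters.

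TNFa beside IFNg changed 7210 genes (61.5% of those tested), with 3665 higher (31.3%) and 3545 lower (30.2%). At least 2-fold changes were called for 866 higher genes (7.39%) and 711 lower genes (6.06%). In 7789 genes (66.4%) the groups' CPM did not overlap, with 34.1% higher and 32.4% lower. The median log2 fold change over all tested genes was 0.0296. Of the genes given below with their level in each library, the groups overlapped for Sod2, Icam1, Socs1 and Casp8 and did not overlap for the others. Many of these genes were picked for a large called change, and some for having no overlap, so this follows in part from the choice of genes. With so many genes called, a list of genes is described below by its counts beside these shares. A gene could pass the filter on low counts through any of the 14 B16 groups, so the tested members of a list are not all its members. A member at or near 0 under IFNg could be called higher but hardly lower. Counts of lists with such members, among them the TNF superfamily, cytokine and PYHIN lists, therefore lean to rises. The changes ran along transcript length, as described further down, so each list was also counted with the length trend removed. Only part of these counts is given below, and others moved too. For example, members called higher became 16 (8 lower) for death receptor, caspase and Bcl2 family genes and 15 for class I genes. They became 5 for chemokines and 19 for growth arrest genes.

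**Figure D1:**
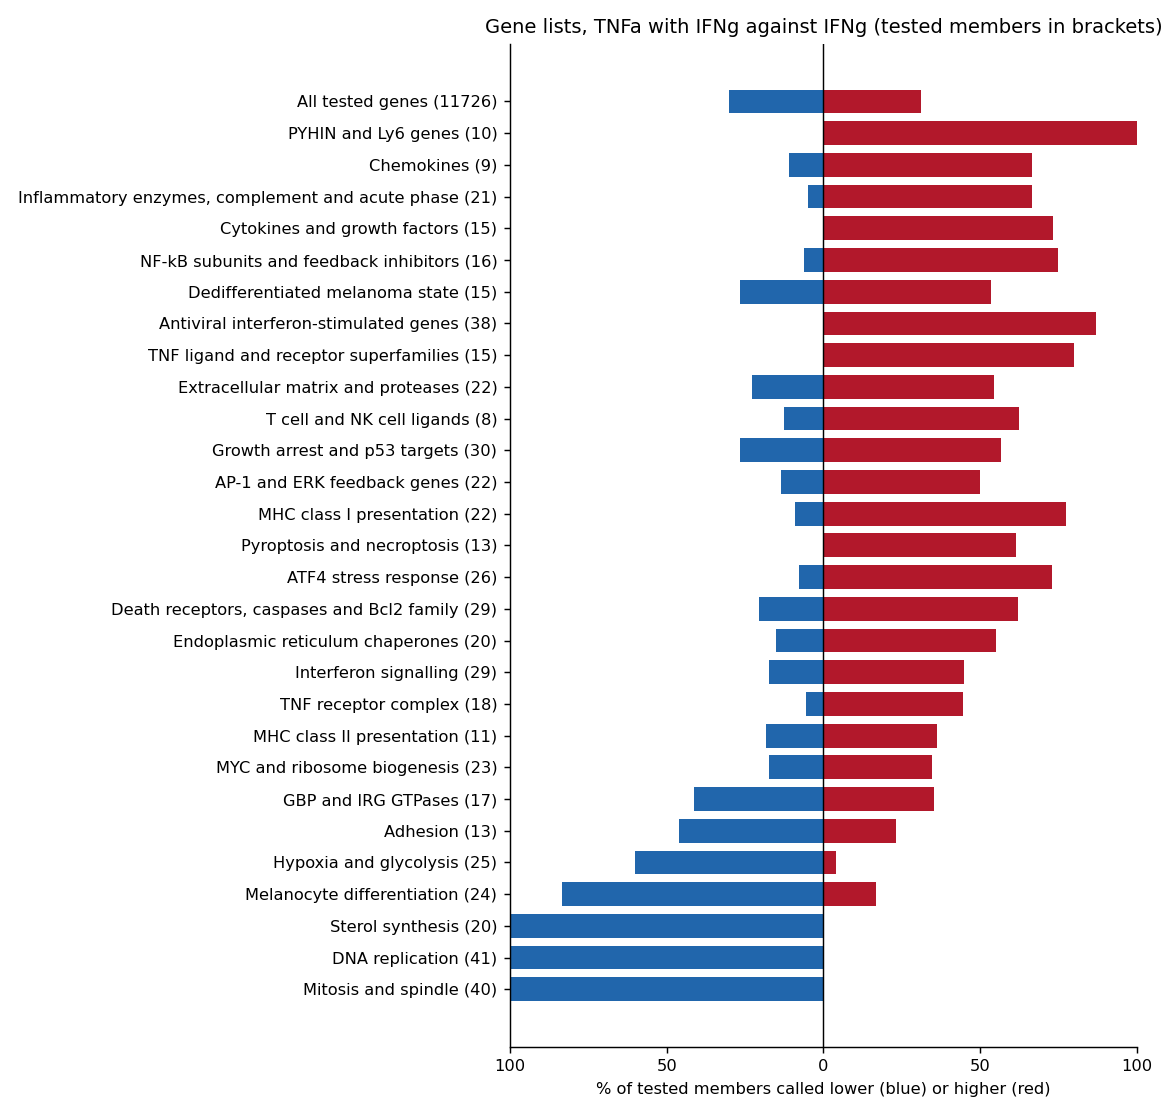
Percent of tested members of each gene list called higher (red, to the right) or lower (blue, to the left) in control B16 cells with IFNg and TNFa against IFNg alone, with the number of tested members in brackets and all 11726 tested genes in the top row (31.3% higher, 30.2% lower). The 10 PYHIN and Ly6 genes were called higher, and the 20 sterol synthesis, 41 DNA replication and 40 mitosis genes lower.

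NF-kB feedback genes were higher with TNFa. Of 16 tested NF-kB subunits and feedback inhibitors, 12 rose, 1 fell and 3 were not called, with a median log2 fold change of 0.966. Nfkbia, which encodes the inhibitor that holds NF-kB in the cytoplasm, had 58.0, 71.3 and 66.9 CPM with IFNg and TNFa, against 10.1, 9.88 and 9.07 CPM with IFNg. The groups did not overlap, and the log2 fold change was 2.75 ± 0.13 (adjusted p = 3.9e-25). Relb, a subunit of the alternative NF-kB pathway, had 67.4, 90.4 and 81.4 CPM with IFNg and TNFa, against 7.96, 6.8 and 6.81 CPM with IFNg (log2 fold change 3.47 ± 0.13, adjusted p = 7.1e-29). Bcl3, a nuclear co-regulator of the IkB family, had 20.9, 28.2 and 28.6 CPM with IFNg and TNFa, against 1.49, 2.43 and 1.65 CPM with IFNg (log2 fold change 3.78 ± 0.22, adjusted p = 1.5e-20), and Nfkbie, a further inhibitor, rose by 3.26 ± 0.09. Tnfaip3, the gene of the ubiquitin-editing brake A20, had 4.59, 4.37 and 4.16 CPM with IFNg and TNFa, against 0.332, 0.324 and 0.825 CPM with IFNg. Its rise of 3.15 ± 0.40 (adjusted p = 2.1e-09) rests on few counts under IFNg alone. Rel, the subunit c-Rel, fell by 0.93 ± 0.27.

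The receptor complex itself moved less. Of 18 tested members, 8 rose, 1 fell and 9 were not called, with a median of 0.121, and with the length trend removed 11 rose and 2 fell. Birc3 and Birc2 encode the ubiquitin ligases cIAP2 and cIAP1, which keep the complex in its survival state. Birc3 had 31.3, 33.5 and 25.3 CPM with IFNg and TNFa, against 9.95, 8.91 and 9.9 CPM with IFNg (log2 fold change 1.65 ± 0.14, adjusted p = 9.5e-15), and Birc2 rose by 0.81 ± 0.11. The linear-ubiquitin subunit gene Sharpin (0.62 ± 0.09) and the adaptor genes Tradd (0.59 ± 0.13) and Traf2 (0.58 ± 0.10) rose too, while Tab3, a subunit of the TAK1 kinase complex, fell (-0.54 ± 0.10).

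Among ligands and receptors of the TNF superfamilies 12 of 15 tested members (32 listed) rose, none fell and 3 were not called (median 0.682). Tnfrsf9, the co-stimulatory receptor 4-1BB, had 66.8, 56.4 and 63.6 CPM with IFNg and TNFa, against 2.65, 0.648 and 1.44 CPM with IFNg. That is a log2 fold change of 5.27 ± 0.22 (adjusted p = 2.2e-25), or 5.90 without IFNg replicate 1, the highest of its group. Tnfrsf12a, the receptor of the ligand TWEAK, had 245, 269 and 283 CPM with IFNg and TNFa, against 66.8, 78.7 and 70.3 CPM with IFNg (log2 fold change 1.88 ± 0.08, adjusted p = 3.8e-28). Tnfrsf11b, a decoy receptor for the ligand RANKL, rose by 2.37 ± 0.33. Fas and Tnf were near the detection limit: Fas had 1.67, 0.546 and 1.08 CPM with IFNg and TNFa, against 0.166, 0 and 0 CPM with IFNg, a ratio of counts of 18.3 (2.87 to 766) with its 95% counting interval in brackets, and the ratio of Tnf, the ligand's own gene, was 12.9 (1.91 to 553).

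Chemokine genes made some of the largest differences. Cxcl9, Cxcl10 and Cxcl11 encode the CXCR3 ligands that attract activated T cells, and they lie beside each other on the minus strand of chromosome 5 (chr5:92321347-92328079, chr5:92346638-92348889 and chr5:92359544-92365485, GRCm38, GENCODE M21). Cxcl9 had 1150.4, 1099.7 and 1074 CPM with IFNg and TNFa, against 7.46, 6.8 and 6.81 CPM with IFNg, a log2 fold change of 7.29 ± 0.09 (adjusted p = 3.7e-47). Cxcl11 had 334, 375.01 and 340.1 CPM with IFNg and TNFa, against 2.32, 1.46 and 1.03 CPM with IFNg (log2 fold change 7.72 ± 0.13, adjusted p = 1.8e-42). Cxcl10, already abundant under IFNg, had 3490.5, 3585 and 3589 CPM with IFNg and TNFa, against 1196, 1219 and 1187 CPM with IFNg (log2 fold change 1.57 ± 0.05, adjusted p = 3.3e-32). In these 3 genes every IFNg with TNFa library lay above every IFNg library.

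Ccl5, a chemokine that recruits T cells, lying on chr11:83525778-83530518, had 1589, 1661 and 1724 CPM with IFNg and TNFa, against 15.6, 13.9 and 13.2 CPM with IFNg. Its log2 fold change was 6.86 ± 0.08 (adjusted p = 2.8e-53). Ccl2, the monocyte attractant, stayed near the limit with 1.25, 2.0 and 1.99 CPM with IFNg and TNFa, against 0.166, 0 and 0 CPM with IFNg, a ratio of counts of 30.2 (4.99 to 1234). Of 9 tested chemokine genes (26 listed), 6 rose, 1 fell and 2 were not called (median 1.57). The 1 that fell, Cx3cl1, had 0.835, 0.91 and 0.723 CPM with IFNg and TNFa, against 2.16, 1.3 and 2.06 CPM with IFNg, and its call was lost in each of 5 fits that left out 1 library, the log2 fold change being -0.99 without IFNg replicate 1.

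**Figure D2:**
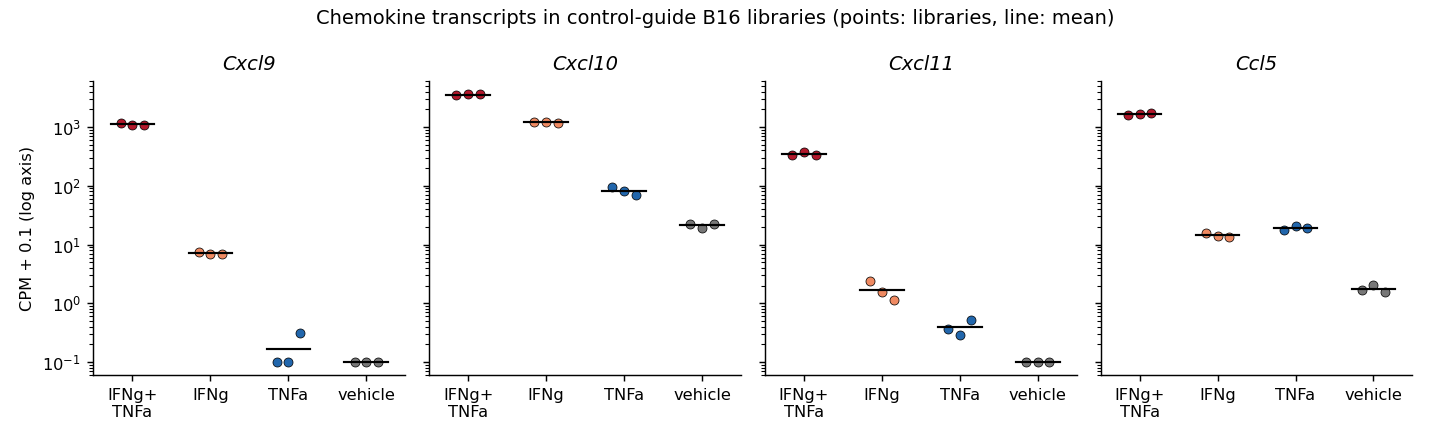
CPM on a log axis of chemokine genes in each control B16 library with IFNg and TNFa, IFNg, TNFa or vehicle, with 1 point per library. Ccl5 and Cxcl10 are detected in the 12 libraries and are highest with IFNg and TNFa, at 1589 to 1724 CPM and 3490 to 3589 CPM.

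Cytokine and growth factor genes rose in 11 of 15 tested members (34 listed), with none lower and 4 not called (median 1.18). Lif, a cytokine of the IL-6 family, had 5.63, 4.55 and 7.78 CPM with IFNg and TNFa, against 0.332, 0.648 and 0.206 CPM with IFNg (log2 fold change 3.79 ± 0.44, adjusted p = 1.9e-10). Pdgfa, a platelet-derived growth factor chain, had 25.5, 32.8 and 30.4 CPM with IFNg and TNFa, against 5.64, 5.99 and 5.36 CPM with IFNg (log2 fold change 2.38 ± 0.15, adjusted p = 2.5e-19). Tgfb1 (2.34 ± 0.23) and Il18 (1.72 ± 0.15), the gene of an inflammasome-processed cytokine, rose as well. Il34, a ligand of the CSF1 receptor, had 4.38, 2.91 and 5.42 CPM with IFNg and TNFa, against 0.497, 0 and 0 CPM with IFNg, a ratio of counts of 24.1 (7.89 to 119.7).

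Inflammatory enzymes, complement and acute-phase genes rose in 14 of 21 tested members (33 listed), with 1 lower (4 with the length trend removed) and 6 not called (median 1.28). C3, the central complement component, had 10.2, 14.2 and 10.3 CPM with IFNg and TNFa, against 0, 0 and 0 CPM with IFNg, at least 66.1-fold higher, with the floor set at 3 counts over the IFNg group. Slfn2, a Schlafen family gene, had 22.9, 21.5 and 18.1 CPM with IFNg and TNFa, against 0, 0 and 0 CPM with IFNg and was at least 118-fold higher. C1s, a protease of the classical complement pathway, had 154, 171 and 164 CPM with IFNg and TNFa, against 15.7, 14.4 and 12.2 CPM with IFNg (log2 fold change 3.52 ± 0.09, adjusted p = 6.7e-36). Serpina3g, a serine protease inhibitor, had 30.04, 26.0 and 27.1 CPM with IFNg and TNFa, against 0.663, 0 and 0.206 CPM with IFNg. Its log2 fold change was 6.45 ± 0.32, or 7.89 without IFNg replicate 1 and 5.82 without IFNg replicate 2.

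Irg1, whose enzyme makes itaconate, had 9.81, 12.9 and 9.94 CPM with IFNg and TNFa, against 0.166, 0 and 0 CPM with IFNg, a ratio of counts of 186 (33.0 to 7410.0). Nos2, inducible nitric oxide synthase, was at the limit of detection (0.209, 0.182 and 0.181 CPM with IFNg and TNFa, against 0, 0 and 0 CPM with IFNg) and was not called (adjusted p = 0.0619). Sod2, mitochondrial superoxide dismutase and a classical NF-kB target, had 97.0, 94.1 and 102 CPM with IFNg and TNFa, against 93.2, 94.6 and 97.7 CPM with IFNg, so the groups overlapped and the difference of 0.04 ± 0.07 was not called. Pla2g4a, cytosolic phospholipase A2, fell by 1.58 ± 0.15. The adhesion ligands Vcam1 and Icam1 had too few counts to be tested, with 0.835, 0.91 and 0.542 CPM with IFNg and TNFa, against 0, 0 and 0 CPM with IFNg for Vcam1 and 1.04, 0.364 and 0.542 CPM with IFNg and TNFa, against 0.332, 0.81 and 0.206 CPM with IFNg for Icam1.

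Outside these lists, the largest rises included Ubd, the ubiquitin-like modifier FAT10 known to respond to both cytokines, with 100.1, 102 and 104 CPM with IFNg and TNFa, against 0.829, 0.324 and 0 CPM with IFNg. Its log2 fold change of 7.87 ± 0.26 was 8.93 without IFNg replicate 1. Madcam1, an addressin, had 3.55, 4.91 and 5.24 CPM with IFNg and TNFa, against 0, 0 and 0 CPM with IFNg, at least 26.2-fold higher. D4Bwg0951e had 6.47, 5.82 and 4.16 CPM with IFNg and TNFa, against 0, 0 and 0.206 CPM with IFNg, a ratio of counts of 92.7 (16.2 to 3705). Several ratios given above rest on 1 library for their IFNg counts. Those counts came from replicate 1 for Il34, Irg1, Ccl2 and Fas and from replicate 3 for Tnf and D4Bwg0951e. Without that library the IFNg group is at 0, and the fitted log2 fold changes, which are then no bounds, were 7.42 for Il34, 8.79 for Irg1, 6.18 for Ccl2, 5.47 for Fas, 4.99 for Tnf and 7.79 for D4Bwg0951e. For Il34 it was 3.81 without IFNg replicate 2.

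The interferon factor gene Irf1 and the feedback gene Socs1 changed little. Irf1 had 1004, 1014 and 1008 CPM with IFNg and TNFa, against 941, 934 and 912 CPM with IFNg, with no overlap and a log2 fold change of 0.12 ± 0.04 (adjusted p = 0.0144). Its direction depends on the treatment of length, at -0.029 with the length trend removed, and the call was lost without any 1 of 5 libraries, at 0.09 without IFNg replicate 3, 0.10 without IFNg with TNFa replicate 1 or 3 and 0.11 without IFNg replicate 1 or 2. Socs1, the feedback inhibitor of JAK kinases, had 58.2, 61.1 and 73.8 CPM with IFNg and TNFa, against 52.1, 62.5 and 56.1 CPM with IFNg and was not called (0.18 ± 0.10), but was at 0.34 with the length trend removed (adjusted p = 0.0128).

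Of 29 tested interferon signalling genes, 13 rose, 5 fell and 11 were not called (median 0.144). Irf5, a transcription factor of inflammatory genes, had 77.4, 74.1 and 87.2 CPM with IFNg and TNFa, against 3.32, 5.18 and 3.3 CPM with IFNg (log2 fold change 4.31 ± 0.14, adjusted p = 3.1e-32). Irf7, which drives amplification of type I interferon, had 646, 645 and 702 CPM with IFNg and TNFa, against 203, 225 and 212 CPM with IFNg (log2 fold change 1.64 ± 0.05, adjusted p = 3.6e-32). Usp18, an inhibitor of type I interferon receptor signalling, rose by 1.66 ± 0.06, and the receptor chain gene Ifngr2 by 1.04 ± 0.06. Irf8 fell by 0.71 ± 0.11, and Ifnar1 (-0.33 ± 0.06), Stat3 (-0.30 ± 0.05), Ptpn11 (-0.44 ± 0.07) and Jak2 (-0.33 ± 0.09) fell less. Jak2 was not called with the length trend removed, at -0.09.

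Antiviral interferon-stimulated genes rose in 33 of 38 tested members, with none lower (1 with the length trend removed) and 5 not called (median 0.898). Oas3, a sensor of double-stranded RNA, had 298, 299.7 and 285 CPM with IFNg and TNFa, against 34.6, 42.3 and 34.0 CPM with IFNg (log2 fold change 2.98 ± 0.08, adjusted p = 1.2e-32). Oasl1 (2.33 ± 0.10), the exonuclease gene Isg20 (2.19 ± 0.10) and Oas1g (1.56 ± 0.11) followed, although reads of the closely similar Oas1 genes may be split uncertainly between them.

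Guanylate-binding and immunity-related GTPases attack intracellular pathogens. Of 17 tested genes, 6 rose, 7 fell and 4 were not called (median -0.0286), near the shares over all tested genes (31.3% higher and 30.2% lower). Gbp5 had 345, 332 and 306 CPM with IFNg and TNFa, against 102, 95.5 and 95.1 CPM with IFNg (log2 fold change 1.75 ± 0.07, adjusted p = 8.9e-28), and Gbp11 rose by 1.82 ± 0.07. Gbp7 had 815, 749 and 714 CPM with IFNg and TNFa, against 1311, 1305 and 1318 CPM with IFNg (log2 fold change -0.79 ± 0.06, adjusted p = 2.9e-17), Gbp6 fell by 0.81 ± 0.08, and Iigp1 had 2198, 2108 and 1937 CPM with IFNg and TNFa, against 2994, 2981 and 3131 CPM with IFNg (log2 fold change -0.54 ± 0.07, adjusted p = 6.0e-08). These genes are near-identical copies in part, so the split of reads among them is uncertain.

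The PYHIN family of nucleic acid sensors and Ly6 surface proteins were called higher in 10 of 10 tested members (16 listed), with a median of 3.0 that is the same with Ly6c1 set at its lower bound. Members at or near 0 under IFNg, such as Ly6c1, Ly6a and Ifi205, could hardly be called lower, so the direction was partly set by the filter. Ifi205 had 26.3, 26.2 and 21.9 CPM with IFNg and TNFa, against 0.332, 0.972 and 0.619 CPM with IFNg (log2 fold change 5.21 ± 0.25, adjusted p = 6.6e-21). Ly6a, the surface protein Sca-1, had 21.1, 25.5 and 26.9 CPM with IFNg and TNFa, against 0, 1.46 and 0 CPM with IFNg. Its only counts under IFNg alone came from replicate 2: the log2 fold change of 5.48 ± 0.41 was 9.96 without that library, a fitted value against libraries at 0 that is no bound, and 4.85 without IFNg replicate 1. Ly6c1 had 3.13, 3.82 and 4.16 CPM with IFNg and TNFa, against 0, 0 and 0 CPM with IFNg, at least 21.2-fold higher, and Pyhin1 and Pydc3 rose by 3.64 ± 0.58 and 3.09 ± 0.25. With TNFa alone and with vehicle, Ly6a and Ifi205 had no count in the 6 libraries.

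Class I antigen presentation rose in 17 of 22 tested genes, with 2 lower and 3 not called (median 0.395). H2-K1, a classical class I heavy chain, had 2055, 2154 and 2259.8 CPM with IFNg and TNFa, against 644, 667 and 689 CPM with IFNg (log2 fold change 1.69 ± 0.06, adjusted p = 6.2e-29). B2m, the light chain of each class I complex, had 4586, 4393 and 4476 CPM with IFNg and TNFa, against 2539, 2698 and 2685 CPM with IFNg (log2 fold change 0.76 ± 0.04, adjusted p = 4.2e-21). H2-D1 rose by 1.26 ± 0.05, H2-T10 by 1.44 ± 0.21, H2-Q4 by 1.33 ± 0.07 and H2-M3 by 1.24 ± 0.25, with reads among H2 genes possibly shared. Erap1, which trims peptides in the endoplasmic reticulum, had 298, 266 and 252 CPM with IFNg and TNFa, against 410.5, 386 and 411 CPM with IFNg (log2 fold change -0.57 ± 0.10, adjusted p = 1.6e-05), and Nlrc5, the class I transactivator, fell by 0.26 ± 0.07 but was not called with the length trend removed (-0.10).

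For class II, 4 of 11 tested genes rose, 2 fell (4 with the length trend removed) and 5 were not called (median 0.12). Cd74, the invariant chain, had 180.1, 182 and 203 CPM with IFNg and TNFa, against 18.6, 13.9 and 13.0 CPM with IFNg (log2 fold change 3.62 ± 0.13, adjusted p = 9.0e-27), and Ctss, a protease that degrades it, rose by 1.25 ± 0.26. Ciita, the class II transactivator, had 5.42, 3.46 and 4.52 CPM with IFNg and TNFa, against 15.4, 17.2 and 16.5 CPM with IFNg (log2 fold change -1.88 ± 0.21, adjusted p = 1.9e-10). Cd74 and its transactivator gene thus differed in opposite directions. H2-Eb1 fell by 1.28 ± 0.40, a call lost with DESeq2 (adjusted p = 0.0622).

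Ligands seen by T cells and NK cells were called higher in 5 of 8 tested members (21 listed) and lower in 1 (median 0.586). Cd274, the gene of PD-L1, had 365, 363 and 329 CPM with IFNg and TNFa, against 277, 269 and 282 CPM with IFNg (log2 fold change 0.35 ± 0.06, adjusted p = 1.4e-06). Pvr, a ligand of TIGIT and DNAM-1, had 149, 132 and 135 CPM with IFNg and TNFa, against 66.5, 67.5 and 74.9 CPM with IFNg (log2 fold change 0.99 ± 0.07, adjusted p = 8.2e-18). Lgals9 (0.97 ± 0.05), Pvrl2 (0.61 ± 0.08) and Cd47 (0.57 ± 0.06), the signal that restrains phagocytosis, rose, and Cd276, the gene of B7-H3, fell by 0.80 ± 0.19.

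Of 29 tested death receptor, caspase and Bcl2 family genes 18 rose, 6 fell and 5 were not called (median 0.298). Bbc3, the pro-death protein PUMA, had 44.0, 53.7 and 56.1 CPM with IFNg and TNFa, against 10.8, 14.1 and 10.1 CPM with IFNg (log2 fold change 2.13 ± 0.16, adjusted p = 2.8e-16), while Bcl2l1, the anti-death protein BCL-XL, rose by 1.01 ± 0.07. Casp8, the initiator caspase of TNF receptors, had 141, 135 and 135 CPM with IFNg and TNFa, against 139, 138 and 145 CPM with IFNg, with overlap and no call (-0.04 ± 0.06). Xiap (-0.74 ± 0.14), Casp2 (-0.64 ± 0.07), Fadd (-0.43 ± 0.08) and Birc5 (-1.85 ± 0.08), the mitotic gene survivin, fell.

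Pyroptosis and necroptosis genes rose in 8 of 13 tested members (23 listed), with none lower and 5 not called (median 0.385), and 11 rose with the length trend removed. Ripk3, Gsdmc2, Nlrp3 and Il1b had no count in the libraries of the pair. Casp4, the mouse gene of caspase-11 that senses cytosolic lipopolysaccharide, had 103, 100.1 and 104 CPM with IFNg and TNFa, against 14.1, 17.0 and 15.5 CPM with IFNg (log2 fold change 2.72 ± 0.10, adjusted p = 2.8e-30). Ninj1, which ruptures the plasma membrane of dying cells, had 234, 266 and 259 CPM with IFNg and TNFa, against 57.9, 61.5 and 61.9 CPM with IFNg (log2 fold change 2.07 ± 0.08, adjusted p = 6.2e-29). Gsdmd, the pore former gasdermin D, had 117, 125 and 136 CPM with IFNg and TNFa, against 60.5, 57.5 and 62.1 CPM with IFNg (log2 fold change 1.07 ± 0.09, adjusted p = 1.4e-15), and Casp12 rose by 2.01 ± 0.10.

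Proliferation genes fell together. Each of the 41 tested DNA replication genes was called lower, 34 of them at least 2-fold, with a median of -1.46. Each of the 40 tested mitosis and spindle genes was called lower and at least 2-fold, with a median of -1.97. The counts of 41 and 40 called lower were the same in every setting tried, leaving out any 1 library included. In bulk RNA, fewer cycling cells and less RNA per cell cannot be told apart.

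Mki67, a marker of cycling cells, had 74.1, 74.1 and 78.1 CPM with IFNg and TNFa, against 366, 362 and 342 CPM with IFNg (log2 fold change -2.24 ± 0.07, adjusted p = 3.8e-31). Bub1, a spindle checkpoint kinase, had 19.8, 17.1 and 23.1 CPM with IFNg and TNFa, against 121, 122 and 125 CPM with IFNg (log2 fold change -2.61 ± 0.10, adjusted p = 2.1e-28). Tk1, thymidine kinase, had 21.7, 22.9 and 28.7 CPM with IFNg and TNFa, against 106, 114 and 111 CPM with IFNg (log2 fold change -2.17 ± 0.11, adjusted p = 5.5e-23), and Rrm2, a subunit of ribonucleotide reductase, had 96.6, 91.2 and 93.1 CPM with IFNg and TNFa, against 362, 385 and 373 CPM with IFNg (log2 fold change -2.00 ± 0.05, adjusted p = 7.5e-36). Ccna2, cyclin A (-2.28 ± 0.08), Kif11, a spindle motor (-2.38 ± 0.07), Cenpf, a kinetochore protein (-2.27 ± 0.08), Mcm10 (-1.97 ± 0.08), Pole, a DNA polymerase (-1.98 ± 0.10) and Lig1, a DNA ligase (-1.98 ± 0.07) fell by similar log2 amounts. Several of the largest falls over all genes were of the same kind: E2f8, a repressor of the E2F family (-2.89 ± 0.11), Aspm, a spindle pole protein (-2.84 ± 0.10), Casc5, a kinetochore scaffold (-3.02 ± 0.20), Depdc1a (-2.80 ± 0.23) and Kif14, a motor of cytokinesis (-2.68 ± 0.10).

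Growth arrest genes and p53 targets rose in 17 of 30 tested members, with 8 lower and 5 not called (median 0.498). Cdkn1a, the CDK inhibitor p21, had 849, 894 and 943 CPM with IFNg and TNFa, against 295, 301 and 281 CPM with IFNg (log2 fold change 1.62 ± 0.05, adjusted p = 1.0e-31). Plk2, a stress-induced kinase, had 73.2, 85.9 and 78.7 CPM with IFNg and TNFa, against 14.9, 14.1 and 14.4 CPM with IFNg (log2 fold change 2.45 ± 0.12, adjusted p = 1.2e-23). The antiproliferative gene Btg2 (2.15 ± 0.23) and the stress genes Gadd45b (1.92 ± 0.11) and Gadd45a (1.84 ± 0.12) rose. Rbl1, the pocket protein p107, had 41.1, 39.8 and 41.6 CPM with IFNg and TNFa, against 149, 142 and 139 CPM with IFNg (log2 fold change -1.81 ± 0.09, adjusted p = 1.4e-22), and Rb1 (-0.91 ± 0.14) and the inhibitors Cdkn2c (-0.99 ± 0.07) and Cdkn2d (-0.87 ± 0.10) fell.

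**Figure D3:**
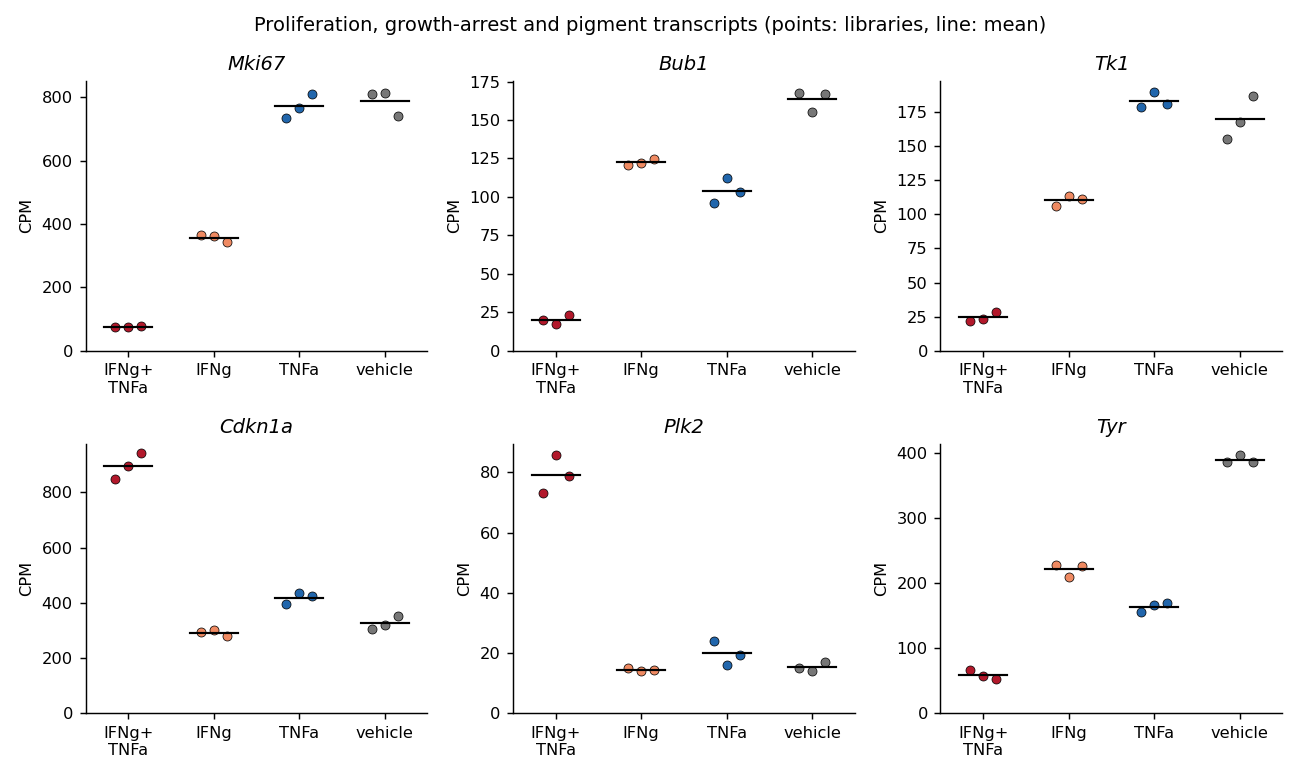
CPM of cell cycle, growth arrest and pigment-cell genes in each control B16 library with IFNg and TNFa, IFNg, TNFa or vehicle, with 1 point per library. Mki67 lies at 74.1 to 78.1 CPM with IFNg and TNFa, against 342 to 366 CPM with IFNg, and Cdkn1a at 849 to 943 CPM, against 281 to 301 CPM.

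Melanocyte differentiation genes were called lower in 20 of 24 tested members and higher in 4 (median -0.874). Tyr, the rate-limiting enzyme of melanin synthesis, had 66.1, 58.0 and 52.1 CPM with IFNg and TNFa, against 228, 209 and 227 CPM with IFNg (log2 fold change -1.92 ± 0.09, adjusted p = 5.6e-22). Pmel, the fibril protein of melanosomes, had 1458, 1368 and 1422 CPM with IFNg and TNFa, against 4228, 4238 and 4283 CPM with IFNg (log2 fold change -1.59 ± 0.04, adjusted p = 1.0e-37). Mitf, the master transcription factor of the lineage, had 273, 245 and 252 CPM with IFNg and TNFa, against 469, 444 and 468 CPM with IFNg (log2 fold change -0.84 ± 0.06, adjusted p = 5.6e-19), while Sox10, which acts above it, had 847, 921 and 932 CPM with IFNg and TNFa, against 599, 606 and 578 CPM with IFNg (log2 fold change 0.60 ± 0.05, adjusted p = 7.4e-16).

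Trpm1, a channel gene of the lineage, had 21.5, 19.5 and 19.7 CPM with IFNg and TNFa, against 129, 132 and 126 CPM with IFNg (log2 fold change -2.68 ± 0.08, adjusted p = 4.7e-34). Oca2 (-1.98 ± 0.14), Rab27a, which moves melanosomes (-1.83 ± 0.06), Dct (-0.90 ± 0.04) and Tyrp1 (-0.81 ± 0.06) fell. Kit, the receptor of stem cell factor, had 0.209, 0.728 and 0.181 CPM with IFNg and TNFa, against 2.16, 1.78 and 1.03 CPM with IFNg, and its log2 fold change of -2.09 ± 0.57 was -2.98 without IFNg with TNFa replicate 2. Mc1r, the melanocortin receptor, rose by 0.42 ± 0.05.

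Genes of the dedifferentiated melanoma state rose in 8 of 15 tested members (29 listed), with 4 lower and 3 not called (median 0.912). Ngfr, a nerve growth factor receptor and marker of the neural crest-like state, had 21.5, 25.1 and 27.1 CPM with IFNg and TNFa, against 0.166, 0.648 and 0.619 CPM with IFNg (log2 fold change 5.64 ± 0.26, adjusted p = 3.7e-25). Axl, a receptor tyrosine kinase, had 245, 266 and 249 CPM with IFNg and TNFa, against 52.4, 52.3 and 47.6 CPM with IFNg (log2 fold change 2.31 ± 0.07, adjusted p = 2.5e-32). Jun (1.54 ± 0.07), Nes (1.35 ± 0.06) and Vim (1.04 ± 0.05) rose, and Ctgf, a target of YAP and TEAD factors, fell by 1.26 ± 0.20, with Cdh2 (-0.65 ± 0.11), Tead1 (-0.55 ± 0.06) and Zeb2 (-0.49 ± 0.11) also lower.

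Stress genes under the factor ATF4 rose in 19 of 26 tested members, with 2 lower and 5 not called (median 0.382). With the length trend removed 15 rose and 5 fell, and 4 fell with no filter on low counts. Ddit3, the factor CHOP, had 317, 354 and 398 CPM with IFNg and TNFa, against 78.9, 77.6 and 89.1 CPM with IFNg (log2 fold change 2.13 ± 0.13, adjusted p = 6.9e-15), and Atf3 had 172, 173 and 194 CPM with IFNg and TNFa, against 60.2, 48.3 and 62.9 CPM with IFNg (log2 fold change 1.66 ± 0.08, adjusted p = 1.6e-23). Nupr1 (1.91 ± 0.12), Ddit4 (1.83 ± 0.11) and Chac1 (1.35 ± 0.14) rose, while Slc7a5, an amino acid transporter gene, fell by 0.59 ± 0.06. Endoplasmic reticulum chaperone genes rose in 11 of 20, with 3 lower, led by Dnajb9 (1.21 ± 0.12) and Herpud1 (0.65 ± 0.09).

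Matrix and protease genes rose in 12 of 22 tested members, with 5 lower and 5 not called (median 0.666). The count of lower genes was 2 without IFNg replicate 2 or without IFNg with TNFa replicate 2. Fn1, fibronectin, had 778, 799.9 and 731 CPM with IFNg and TNFa, against 257, 224 and 212 CPM with IFNg (log2 fold change 1.73 ± 0.09, adjusted p = 8.1e-18), and Thbs1, thrombospondin, had 542, 529 and 438 CPM with IFNg and TNFa, against 168, 147 and 158 CPM with IFNg (log2 fold change 1.68 ± 0.12, adjusted p = 6.6e-14). Adamts4, an aggrecan protease, rose by 2.05 ± 0.11 and Mmp2 by 1.99 ± 0.17. Of the 8 fibroblast markers given above, only 1 had enough counts to be tested, and the part of such cells in these changes was not tested. Col1a2, a collagen chain, had 1.25, 1.64 and 1.63 CPM with IFNg and TNFa, against 8.79, 7.61 and 9.07 CPM with IFNg (log2 fold change -2.46 ± 0.27, adjusted p = 2.8e-11).

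Adhesion genes rose in 3 of 13 tested members and fell in 6 (4 with the length trend removed). Mcam had 639, 667 and 668 CPM with IFNg and TNFa, against 199, 188 and 192 CPM with IFNg (log2 fold change 1.77 ± 0.05, adjusted p = 4.1e-34), while Itgb3 had 7.72, 5.28 and 5.97 CPM with IFNg and TNFa, against 19.2, 20.9 and 19.8 CPM with IFNg (log2 fold change -1.67 ± 0.16, adjusted p = 2.4e-13) and Ncam1 fell by 1.79 ± 0.21. AP-1 and ERK feedback genes rose in 11 of 22 tested members, with 3 lower (5 without IFNg with TNFa replicate 1) and 8 not called. Fosl2, an AP-1 subunit, had 142, 149 and 141 CPM with IFNg and TNFa, against 28.7, 22.99 and 19.4 CPM with IFNg (log2 fold change 2.59 ± 0.09, adjusted p = 1.6e-30), Junb rose by 2.0 ± 0.09, and Egr1 fell by 1.79 ± 0.38. MYC and ribosome biogenesis genes were called higher in 8 of 23 and lower in 4, against 31.3% and 30.2% of all tested genes, and the count of 8 was 5 with no filter on low counts. Myc rose by 1.07 ± 0.09 and Cad, of pyrimidine synthesis, fell by 0.86 ± 0.09.

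Sterol synthesis genes were called lower in 20 of 20 tested members (19 with the length trend removed), with a median of -1.05. Insig1, a sterol-responsive regulator of the pathway, had 82.2, 71.5 and 76.5 CPM with IFNg and TNFa, against 314, 335 and 324 CPM with IFNg (log2 fold change -2.08 ± 0.07, adjusted p = 8.0e-32). Cyp51, which removes a methyl group from lanosterol, had 158, 143 and 144 CPM with IFNg and TNFa, against 386, 386 and 394 CPM with IFNg (log2 fold change -1.39 ± 0.05, adjusted p = 3.2e-30), and Stard4 (-1.97 ± 0.13), Lss (-1.49 ± 0.08) and Idi1 (-1.40 ± 0.27) fell too. Hypoxia and glycolysis genes fell in 15 of 25 tested members, with 1 higher and 9 not called (median -0.345). Slc16a3, a lactate exporter, had 21.9, 9.28 and 14.1 CPM with IFNg and TNFa, against 47.4, 36.6 and 46.0 CPM with IFNg (log2 fold change -1.54 ± 0.24, adjusted p = 1.4e-06), and Pdk1, which restrains pyruvate oxidation, had 32.3, 23.5 and 21.3 CPM with IFNg and TNFa, against 67.8, 68.5 and 73.0 CPM with IFNg (log2 fold change -1.45 ± 0.12, adjusted p = 1.1e-14).

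Among other large falls were Cxcr7, a scavenging receptor of CXCL12, with 0.417, 0.182 and 0.362 CPM with IFNg and TNFa, against 4.48, 3.56 and 4.12 CPM with IFNg (log2 fold change -3.58 ± 0.48, adjusted p = 8.6e-09), Hmcn1, a matrix protein, with 11.5, 8.92 and 7.41 CPM with IFNg and TNFa, against 73.4, 61.5 and 64.5 CPM with IFNg (log2 fold change -2.85 ± 0.14, adjusted p = 2.9e-24), and Megf6 (-3.39 ± 0.21), Kbtbd11 (-3.61 ± 0.43), Anubl1 (-2.98 ± 0.38), Sema6d (-2.95 ± 0.38) and Iqgap2 (-2.90 ± 0.28).

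The effect of TNFa beside IFNg was then set against the effect of TNFa alone over vehicle, which shares no library with it. TNFa alone changed 5591 genes (47.7%), with 2897 higher (24.7%) and 2694 lower (23%). In 3840 genes both effects were called with the same sign, 53.3% of the calls beside IFNg and 68.7% of those without it. Signs were opposite in 306 genes, 108 of them higher beside IFNg and lower without it. The difference of the effects, as log2 fold change beside IFNg minus log2 fold change without IFNg, is 0 when TNFa multiplies expression by the same factor in both. It was called for 3002 genes (25.6%), with 1234 higher (10.5%) and 1768 lower (15.1%). In 2418 of these genes the difference had the direction of the called effect beside IFNg (959 higher and 1459 lower). The difference contains that effect and shares its libraries, so this agreement is partly built in and is given as a count only. TNFa alone was not called in 535 of the 959 and in 761 of the 1459.

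**Figure D4:**
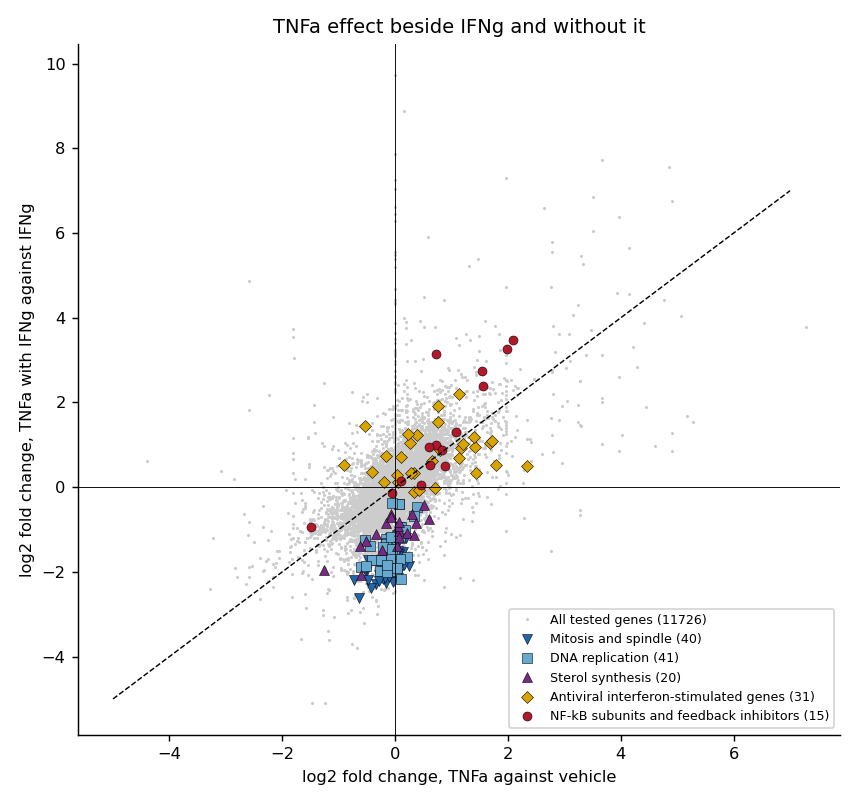
Log2 fold change of each tested gene for TNFa against vehicle (horizontal) and for IFNg with TNFa against IFNg (vertical) in control B16 cells, with list members that have over 3 counts in each of the 4 groups in color and a dashed line of equal effects. DNA replication, mitosis and sterol synthesis genes mostly lie near 0 on the horizontal axis and below 0 on the vertical one, and most NF-kB feedback genes lie above the line.

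For NF-kB feedback genes the difference was called higher in 6 of 16, lower in 1 and not called in 9 (median 0.248). The 1 called lower was Bcl3, a call lost with DESeq2 (-2.99, adjusted p = 0.0629) and in several fits that left out 1 library. Nfkbia had 53.5, 51.1 and 49.6 CPM with TNFa alone, against 15.99, 15.6 and 21.04 CPM with vehicle, and the difference of the effects was 1.22 ± 0.19 (adjusted p = 7.8e-07). Relb had 102, 104 and 93.9 CPM with TNFa alone, against 21.7, 24.6 and 24 CPM with vehicle, a difference of 1.38 ± 0.19 (adjusted p = 3.9e-08). Under IFNg alone both genes lay below vehicle. With TNFa added, Nfkbia lay above the level of TNFa alone in each library and Relb below it. Tnfaip3 had 2.71, 4.05 and 2.28 CPM with TNFa alone, against 1.78, 1.56 and 2.14 CPM with vehicle, a difference of 2.42 ± 0.56 (adjusted p = 7.1e-04).

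Among chemokines the pattern differed from gene to gene. Ccl5 had 17.9, 20.2 and 18.7 CPM with TNFa alone, against 1.58, 1.95 and 1.48 CPM with vehicle, and the difference of 3.35 ± 0.34 (adjusted p = 1.1e-11) places its TNFa effect far higher beside IFNg. Cxcl10 had 93.6, 82.8 and 70.5 CPM with TNFa alone, against 22.5, 18.9 and 21.9 CPM with vehicle, and its difference of -0.39 ± 0.10 (adjusted p = 0.00196) is below 0. TNFa alone raised it by 1.95 ± 0.08. Cxcl11 had 0.271, 0.184 and 0.415 CPM with TNFa alone, against 0, 0 and 0 CPM with vehicle, and Cxcl9 had 0, 0 and 0.207 CPM with TNFa alone, against 0, 0 and 0 CPM with vehicle, too few counts for a difference to be read. Lif had 0.814, 0.368 and 0 CPM with TNFa alone, against 0.592, 0 and 0.164 CPM with vehicle, and its difference of 3.29 ± 1.27 (adjusted p = 0.0496) was lost in 8 of the fits that left out 1 library, being 2.04 without vehicle replicate 1.

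H2-K1 had 36.6, 28.3 and 37.7 CPM with TNFa alone, against 8.69, 9.55 and 11.2 CPM with vehicle, a rise of 1.78 ± 0.13, and the difference of -0.08 ± 0.15 was not called (adjusted p = 0.742). For Casp4 (8.68, 9.93 and 7.05 CPM with TNFa alone, against 0.987, 0.78 and 1.81 CPM with vehicle) the difference was -0.06 ± 0.25 and likewise not called. B2m (-0.63 ± 0.07) and Irf1 (-0.83 ± 0.10) had a smaller effect beside IFNg, each called, as TNFa alone raised them by 1.40 ± 0.05 and 0.95 ± 0.09. Antiviral genes had the difference called higher in 8 of 38 and lower in 8, and class I genes higher in 1 of 22 and lower in 5.

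Proliferation genes moved together in this difference. TNFa alone was called lower in 13 of 41 DNA replication genes and higher in 3, and lower in 15 of 40 mitosis genes and higher in 2. The difference was called lower in 40 of 41 and in 40 of 40. Mki67 had 736, 767 and 812 CPM with TNFa alone, against 810.4, 814 and 740.4 CPM with vehicle, and the difference was -2.21 ± 0.09 (adjusted p = 3.4e-25). Its level under IFNg alone lay below vehicle in each library, and its level with both cytokines lay lower again. Tk1 had 179, 189 and 181 CPM with TNFa alone, against 155, 167 and 187 CPM with vehicle, a difference of -2.27 ± 0.13 (adjusted p = 3.2e-19). Growth arrest genes had the difference called higher in 15 of 30 and lower in 4, with Cdkn1a (396, 437 and 425 CPM with TNFa alone, against 307, 319 and 354 CPM with vehicle) at 1.25 ± 0.08 (adjusted p = 5.5e-20) and Plk2 at 2.13 ± 0.21 (adjusted p = 2.4e-12).

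Sterol synthesis genes had the difference called lower in 18 of 20, while TNFa alone was called higher in 5 and lower in 7. Cyp51 had 325, 332 and 356 CPM with TNFa alone, against 331, 325 and 339 CPM with vehicle, a difference of -1.42 ± 0.07 (adjusted p = 1.4e-23). Melanocyte genes had TNFa alone called lower in 16 of 24 and higher in 4, and the difference lower in 18 and higher in 1. Tyr had 155, 166 and 169 CPM with TNFa alone, against 386, 396 and 385 CPM with vehicle and a difference of -0.67 ± 0.12 (adjusted p = 3.4e-05), whereas for Mitf (354, 366 and 379 CPM with TNFa alone, against 708, 692 and 709.5 CPM with vehicle) the difference of 0.10 ± 0.08 was not called (adjusted p = 0.393). Stress genes under ATF4 had TNFa alone called higher in 19 of 26, as beside IFNg, and the difference higher in 2 and lower in 3. Atf3 had 26.1, 29.98 and 27.4 CPM with TNFa alone, against 9.67, 13.6 and 12 CPM with vehicle, with a difference of 0.41 ± 0.17 that was not called (adjusted p = 0.0733) but was called in 8 alternative fits at 0.42 to 0.53. Endoplasmic reticulum chaperones had the difference called higher in 12 of 20 and lower in 2. Matrix genes had it called higher in 8 of 22 and lower in 4, with Thbs1 (6.24, 5.52 and 3.94 CPM with TNFa alone, against 7.9, 5.07 and 6.41 CPM with vehicle) at 1.99 ± 0.40 (adjusted p = 2.9e-04).

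Beside IFNb, a type I interferon, TNFa changed 1038 genes (8.85%), with 632 higher (5.39%) and 406 lower (3.46%). The TNFa effect beside IFNg differed from that beside IFNb in 4673 genes (39.9%), 2072 higher (17.7%) and 2601 lower (22.2%). Mki67 had 800.1, 797 and 724 CPM with IFNb and TNFa, against 783, 756 and 797 CPM with IFNb, and the difference between the TNFa effects was -2.23 ± 0.09 (adjusted p = 1.9e-25). In 40 of 40 mitosis genes and 39 of 41 DNA replication genes this difference was called lower, and in 18 of 20 sterol genes and 20 of 24 melanocyte genes. Of 16 NF-kB feedback genes, the difference was called higher in 5 and lower in 3 and not called in 8. Relb had 75.2, 73.2 and 66.7 CPM with IFNb and TNFa, against 7.77, 7.75 and 10.1 CPM with IFNb, and its difference of 0.40 ± 0.22 was not called (adjusted p = 0.149). Ccl5 had 25.1, 26.0 and 25.6 CPM with IFNb and TNFa, against 2.03, 2.38 and 1.88 CPM with IFNb, a difference of 3.26 ± 0.30 (adjusted p = 5.8e-13). Cxcl10 had 540.3, 526 and 535 CPM with IFNb and TNFa, against 89.6, 88.6 and 97.2 CPM with IFNb, and its difference was -0.97 ± 0.08 (adjusted p = 1.3e-15), so its TNFa effect was larger beside IFNb, from a lower level. Antiviral genes had the difference called higher in 29 of 38. Interferon signalling genes had it called higher in 5 of 29, among them Usp18, and lower in 4. Usp18 averaged 142 ± 9.94 CPM with IFNb and TNFa, against 167 ± 7.39 CPM with IFNb, a difference of 1.90 ± 0.09 (adjusted p = 2.1e-24).

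In Ptpn2-null cells, TNFa beside IFNg changed 7237 genes (61.7%), with 3610 higher (30.8%) and 3627 lower (30.9%). PTPN2 dephosphorylates JAK and STAT proteins, and the genotype rests on a single guide. The TNFa effect differed between control and Ptpn2-null cells in 1295 genes (11%), 899 higher in control cells (7.67%) and 396 lower (3.38%), or 1328 and 256 with library totals in place of composition scaling. Cxcl10 rose by 1.57 ± 0.05 in control cells, and by 0.31 ± 0.05 in Ptpn2-null cells (4036 ± 166 CPM in Ptpn2-null cells with IFNg and TNFa, against 3246 ± 14.3 CPM in Ptpn2-null cells with IFNg), a difference of 1.25 ± 0.07 (adjusted p = 3.7e-20). Cxcl11 (909 ± 48.3 CPM in Ptpn2-null cells with IFNg and TNFa, against 23.1 ± 1.19 CPM in Ptpn2-null cells with IFNg) differed by 2.42 ± 0.23 (adjusted p = 2.5e-11). In contrast Nfkbia (108 ± 14.3 CPM in Ptpn2-null cells with IFNg and TNFa, against 13.9 ± 0.958 CPM in Ptpn2-null cells with IFNg) differed by -0.22 ± 0.19 and was not called (adjusted p = 0.581), and H2-K1 differed by -0.02 ± 0.08 (adjusted p = 0.931). Mitf (56.9 ± 5.83 CPM in Ptpn2-null cells with IFNg and TNFa, against 260.1 ± 11.9 CPM in Ptpn2-null cells with IFNg) fell by 2.19 ± 0.07 in Ptpn2-null cells, a difference of 1.35 ± 0.09 (adjusted p = 9.7e-18). The difference was called higher in 29 of 40 mitosis genes and 21 of 38 antiviral genes, and lower in 15 of 20 endoplasmic reticulum chaperone genes. The 40 mitosis genes were called lower with TNFa in both genotypes, with medians of -1.97 in control and -2.6 in Ptpn2-null cells. For them a higher difference is a smaller fall in control cells.

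The libraries of the pair differed in how their counts ran along transcript length. Each library's slope of log2 CPM on log2 length, taken relative to the mean of the 14 B16 groups, was -0.0707, -0.126 and -0.185 in the IFNg with TNFa libraries, against 0.0845, 0.0526 and 0.0595 in the IFNg libraries. The groups did not overlap, and the 42 B16 libraries ran from -0.257 to 0.147. Slopes were -0.177, -0.213 and -0.158 with TNFa alone, against 0.0355, 0.0489 and 0.0215 with vehicle. Across 11614 tested genes with a length (99.04%), which are not independent replicates, Spearman's rho of fold change on length was -0.27 for TNFa beside IFNg and -0.407 for TNFa alone. It was 0.0413 for the difference of the effects, 0.00136 for TNFa beside IFNb and -0.298 for the difference between the TNFa effects beside IFNg and beside IFNb. Of the 4673 calls of that last difference, 3738 were also made with the length trend removed, each with the same sign, among 4513 calls in all.

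Calls followed the same slope. Genes were split by transcript length into 3 groups of equal size. Among the shortest transcripts (66 to 1403 nt), 41.5% of genes were called higher and 17.1% lower with TNFa beside IFNg. Among middle lengths (1403 to 2253 nt) these shares were 30.8% and 29.9%, and among the longest 21.4% and 43.9%. Changes of at least 2-fold numbered 354 higher and 145 lower among the shortest, 263 and 224 among middle lengths and 237 and 337 among the longest. Removing the trend left 3532 genes higher and 3594 lower, 7126 in all. Of these, 6132 were also called with the trend left in, and 6129 of them had the same sign. The part of RNA quality or library preparation in the trend was not tested.

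**Figure D5:**
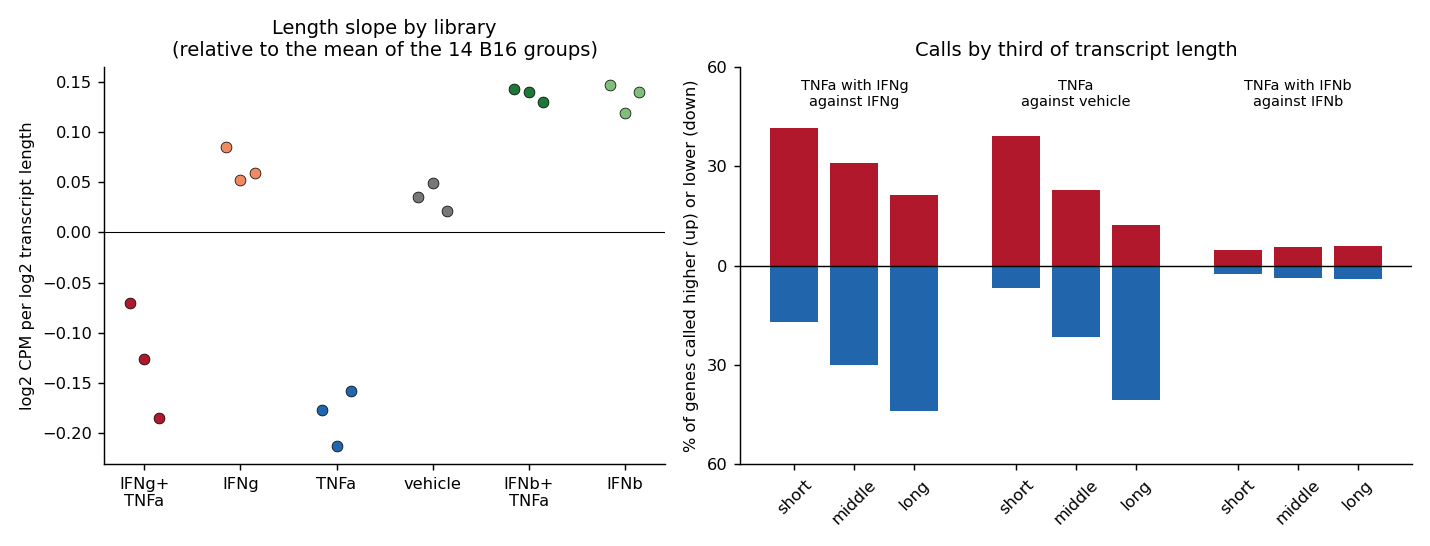
Left, slope of log2 CPM on log2 transcript length in each control B16 library relative to the mean of the 14 B16 groups, 1 point per library. Right, percent of genes called higher (up) or lower (down) in each of 3 equal groups by transcript length for 3 TNFa comparisons. Beside IFNg the share called higher was 41.5% among the shortest, 30.8% among middle and 21.4% among the longest transcripts, and beside IFNb it was 4.73% to 5.89%.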

How the data were processed

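Raw read counts per gene were deposited by the authors for 42 B16 libraries of poly(A) RNA, read in pairs of 37 bp from a directional kit, per the labels' protocols. The submitters' processing notes name bcl2fastq 2.17.1.14, Trimmomatic 0.33, Bowtie2 2.2.4, HTSeq 0.6.1p1 and DESeq2, and the build mm10. Which annotation and strand setting were used for counting is not given in these sources. Counts were tested with edgeR 4.0.16 (quasi-likelihood, TMM, filterByExpr, 1 mean per group over the 42 libraries, no block) in R 4.3.3, and DESeq2 1.42.0 was an alternative. Each SE was taken as the size of the log2 difference over the square root of F. The fit was also run on simulated counts. Those had far fewer changed genes than these data and no length trend, so they cannot show how the fit does under such conditions. Transcript lengths and coordinates came from GENCODE M21 and promoters from RefSeq. The comparison and gene lists were chosen with earlier results of these data known. Named genes were a fixed set, up to 12 of the largest called non-overlapping changes per direction, up to 5 called members per list and direction, and up to 8 (without IFNg) or 6 (IFNb, Ptpn2-null) of the largest differences, where mean log2 CPM was 1 or more. Alternatives were other scalings, no filter, a length correction, a replicate block, fewer groups in the fit, DESeq2 and each library left out. Replicate libraries of the pair differed beyond sampling noise (chi-square per degree of freedom 1.309 to 3.357). Intervals cover counting error only. A few genes of the fixed set and lists are not reported here by name.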

Additional observations from a re-analysis of the deposited data

Results flagged for a closer look

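Effects of TNFa that differed between conditions, by a test of the difference itself, are listed here with no explanation. The difference between TNFa beside IFNg and TNFa alone was called for 3002 genes. Of the largest, Tlr2, a receptor of bacterial lipoproteins, differed by 3.90 on the log2 scale (24.9 ± 4.53 CPM with IFNg and TNFa, against 0.657 ± 0.164 CPM with IFNg). It differed by 2.65 without vehicle replicate 1 (adjusted p = 0.455) and by 4.60 without replicate 1 of TNFa alone. Levels in brackets here are those beside IFNg, and the levels without IFNg enter each difference too. Fyb differed by 3.49 (14.7 ± 2.3 CPM with IFNg and TNFa, against 0.945 ± 0.119 CPM with IFNg), Acss1 by 3.38, Ccl5 by 3.35, Lif by 3.29, Cdsn by 3.20 and Rlbp1 by 3.0. On the lower side, Anubl1 differed by -2.65, Depdc1a by -2.50, Hmgb2, a chromatin protein, by -2.49 and Col1a2 by -2.46. Of the fixed set, Tnfaip3 (2.42), Relb (1.38), Cdkn1a (1.25), Nfkbia (1.22) and Sod2 (0.33) differed upward. Mki67 (-2.21), Kit (-2.20, or -3.07 without IFNg with TNFa replicate 2), Irf1 (-0.83), Tyr (-0.67), B2m (-0.63) and Cxcl10 (-0.39) differed downward.

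TNFa beside IFNg differed from TNFa beside IFNb in 4673 genes. Cxcl11 differed by 4.37 (3.73 without IFNb replicate 1). Apod, a lipid carrier, differed by 3.91. It averaged 71.4 ± 5.55 CPM with IFNg and TNFa, against 5.21 ± 0.663 CPM with IFNg. Beside IFNb it averaged 8.92 ± 1.08 CPM with IFNb and TNFa, against 9.82 ± 1.8 CPM with IFNb. Anubl1 (-3.11), Kbtbd11 (-3.09), Casc5 (-3.03) and Aspm (-2.96) differed downward.

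TNFa beside IFNg differed between control and Ptpn2-null cells in 1295 genes. Ifi205 differed by 3.11. In control cells it averaged 24.8 ± 2.52 CPM with IFNg and TNFa, against 0.641 ± 0.321 CPM with IFNg. Its means were 174 ± 15.7 CPM in Ptpn2-null cells with IFNg and TNFa, against 40.6 ± 2.94 CPM in Ptpn2-null cells with IFNg. Ly6a differed by 3.01, or 7.50, a fitted value against libraries at 0 that is no bound, without control IFNg replicate 2 and 2.40 without control IFNg replicate 1. Ppm1e differed by 3.08, called higher with TNFa in control cells (16.7 ± 2.49 CPM with IFNg and TNFa, against 4.77 ± 1.46 CPM with IFNg) and lower in Ptpn2-null cells (5.32 ± 2.0 CPM in Ptpn2-null cells with IFNg and TNFa, against 12.7 ± 0.919 CPM in Ptpn2-null cells with IFNg). Kank4 (2.93) and Dhrs3 (2.46) differed upward too. Emp1 (-2.76), Adam8 (-2.63), Tmem74 (-2.49), Ppp1r16b (-2.16), Shroom3 (-2.09, or -1.87 and not called without control IFNg replicate 1) and Mcf2l (-2.08) differed downward.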

How the results depend on the processing

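Genes called for TNFa beside IFNg were 7239 with RLE size factors, 7321 with library totals, 7114 with no filter, 7126 with the length trend removed, 7195 when the fit held the compared groups alone and 6868 with DESeq2, near the 7210 reported. Their split by direction depended on the setting. It was 4042 higher and 3279 lower with library totals and 3438 and 3676 with no filter, against the 3665 and 3545 reported. Leaving out 1 library gave 6453 to 7033 (3107 to 3410 higher, 3325 to 3623 lower). For the difference from TNFa alone the range was 2643 to 2864 (1070 to 1334 higher, 1433 to 1671 lower), with 3313 when the length trend was removed and 2774 with DESeq2. For the difference from IFNb it was 4053 to 4767 (1650 to 2032 higher, 2365 to 2735 lower), for the difference from Ptpn2-null cells 1095 to 1229 (748 to 873 higher, 284 to 399 lower) and for TNFa alone 4495 to 5127 (2142 to 2618 higher, 2264 to 2733 lower). Library totals left 256 genes lower for the difference from Ptpn2-null cells, against 396. For TNFa alone they gave 3384 higher and 2367 lower, against 2897 and 2694. With the longest transcript of each gene in place of the mean, rho on length was -0.339. Irf1 reversed to -0.029 with the length trend removed, and to -0.029 with the replicate block and the trend removed together. The cause was not tested. Among lists, members called lower numbered 0 to 1 for antiviral and for pyroptosis genes and 1 to 2 for NF-kB feedback genes over the settings, and hypoxia members called higher 1 to 3. Of 219 named genes, 16 changed their call or sign in some setting for TNFa beside IFNg, as did 10 of 42 for the difference from TNFa alone. Counts near the floor limit Fas, Tnf, Ccl2, Il34 and Nos2.

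The replicate numbers carry no stated meaning, and no clear pairing by number was seen. Deviations of same-numbered libraries from their group means correlated by 0.0537, -0.00498 and -0.0011. Replicate 1 correlated best with its own number, and replicates 2 and 3 did not. With 3 libraries a group, this check cannot show that libraries were not paired. With the replicate block 7183 genes were called for TNFa beside IFNg, 7156 of them shared with the fit without it, and 7124 with the block and the length trend removed. For the difference from TNFa alone it gave 2975, and Lif was then not called (3.27, adjusted p = 0.055).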
